A study of Mus musculus with 12 samples.

Results

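The genes described here are 10 markers of the fibroblasts that lie in the meninges and around blood vessels of the central nervous system: CYP1B1, ALDH1A1, ALDH1A2, FOXC1, FOXD1, CRABP2, SLC22A6, PTGDS, ISLR and DPT. They were taken by symbol from a table of 13957 gene symbols, which listed 13647 genes above and 12338 genes below a spinal cord lesion. Of the 10 markers, 5 were listed above the lesion (CYP1B1, ALDH1A1, FOXC1, PTGDS and ISLR) and 9 below it, and SLC22A6 was listed at neither site. All 5 markers listed above were among the 9 listed below.

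RNA was sequenced from bulk spinal cord of male mice that carried human ApoE4, the apolipoprotein E variant linked to late-onset Alzheimer's disease, in place of the mouse gene. All mice received a moderate-severity contusion at thoracic vertebra 9 when 4 months old, and cord just rostral (above) and just caudal (below) of the epicenter was taken 14 days later. At each site, a group labelled synj1+/+ (both alleles of synaptojanin 1, a phosphoinositide phosphatase, intact) was compared with a group labelled synj1+/- (1 allele inactive in every cell of the animal), which makes 4 groups of 3 libraries, 12 in all. Rostral and caudal libraries may share their mice, and the sham and ApoE3 animals of the study were not analysed here.

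The deposited table held 1 value per gene and group and 0 columns of single libraries. The spread between the 3 libraries of a group, and whether 1 library carried a group's value, could therefore not be computed, and every difference given here is a description without a test. Values are given as FPKM (fragments per kilobase of transcript and library size, upper quartile normalized by the authors), which was the deposited value minus the 1 that it carried. Differences are log2 of FPKM plus 1 in the synj1+/- labelled group minus the same in the synj1+/+ labelled group, a scale that makes the differences of low genes smaller, and a gene was counted as lower or higher when it passed 1.5-fold on that scale. The targeted gene, SYNJ1, went against its labels. Its FPKM was 1904 in the synj1+/+ labelled group and 2403 in the synj1+/- labelled group above the lesion, and 1846 and 2592 below it, with log2 differences of 0.34 and 0.49. Each direction in the text is that of the labels. Whether the 2 genotype labels were exchanged cannot be told from the table, and an exchange would turn every direction given. Wherever 2 values of a gene at a site stand as a pair, the synj1+/+ labelled group comes first.

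Fibroblasts of the pia, the arachnoid and the spaces around larger vessels secrete the collagen of the cord's coverings and vessel walls. After an injury, such cells enter and surround the lesion and form its fibrotic scar, while the meninges are also the main source of retinoic acid in the nervous system. The 10 markers hold enzymes and a carrier of the retinoic acid pathway, forkhead transcription factors, a transporter, a prostaglandin synthase, a cytochrome P450 and secreted matrix proteins.

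The promoters of the 4 markers with the largest differences below the lesion, ISLR, CYP1B1, DPT and FOXD1, are shown. The order of the groups does not set them apart, since all 9 markers listed there were lower in the synj1+/- labelled group. DPT and FOXD1 were listed only through the synj1+/+ labelled group, which set their order in advance. Each sequence is the 250 bases before the RefSeq start of the gene on GRCm38.p6, read 5′ to 3′ on the strand of the gene. They lie at chr9:58158555-58158804 (minus strand), chr17:79715062-79715311 (minus strand), chr1:164796413-164796662 (plus strand) and chr13:98353995-98354244 (plus strand). Capitals mark a GC box (GGGCGG) or the core letters bound by the aryl hydrocarbon receptor (GCGTG) on either strand.
ISLR: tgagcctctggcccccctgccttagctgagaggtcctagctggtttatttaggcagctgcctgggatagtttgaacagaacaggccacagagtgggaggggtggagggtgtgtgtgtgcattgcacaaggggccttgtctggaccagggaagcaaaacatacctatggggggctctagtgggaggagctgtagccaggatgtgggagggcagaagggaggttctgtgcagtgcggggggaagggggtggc
CYP1B1: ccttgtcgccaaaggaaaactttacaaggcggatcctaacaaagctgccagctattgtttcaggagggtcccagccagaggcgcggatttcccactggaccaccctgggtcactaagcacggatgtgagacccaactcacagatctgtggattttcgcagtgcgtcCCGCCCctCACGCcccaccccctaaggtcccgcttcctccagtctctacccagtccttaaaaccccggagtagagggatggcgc
DPT: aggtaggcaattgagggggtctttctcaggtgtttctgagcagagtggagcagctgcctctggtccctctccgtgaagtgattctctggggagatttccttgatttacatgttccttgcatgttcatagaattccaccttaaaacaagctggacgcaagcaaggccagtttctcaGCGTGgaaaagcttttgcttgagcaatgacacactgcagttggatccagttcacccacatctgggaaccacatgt
FOXD1: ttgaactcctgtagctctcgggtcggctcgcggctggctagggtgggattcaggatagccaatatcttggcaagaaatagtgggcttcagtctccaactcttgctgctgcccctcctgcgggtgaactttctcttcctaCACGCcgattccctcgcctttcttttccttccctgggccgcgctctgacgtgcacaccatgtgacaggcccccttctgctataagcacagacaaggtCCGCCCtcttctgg

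Promoter windows of 300 bases, from 250 before to 50 after the start, were matched for 9 of the 10 markers in RefSeq, with a pair of windows for ALDH1A1. The letters GCGTG (or CACGC on the other strand) were in the windows of 5 of the 9 markers (ALDH1A2, CYP1B1, DPT, FOXC1 and FOXD1), and in 32.4% of all 32851 windows. CYP1B1 is a known target of the aryl hydrocarbon receptor, a ligand-activated transcription factor. The GC box (GGGCGG or CCGCCC) was in the windows of 3 markers (CYP1B1, FOXC1 and FOXD1) and in 35.7% of all windows. ISLR and SLC22A6 held none of the 6 motifs searched. TATAAA was found in 1 marker, DPT, where it starts 12 bases after the RefSeq start and so outside the sequence shown, and in 13.6% of all windows. CCAATC was in 1 of the ALDH1A1 windows and in 16.1% of all. The AP-1 letters TGANTCA were in ALDH1A1 and PTGDS, 2 of the 9, and in 7.81% of all windows, and the forkhead core TAAACA was in 0 of the 9 and in 13.4% of all. Every motif was searched on both strands, and no matches overlapped in the markers. None of the 6 motifs searched was in the windows of all 9 markers, and the GC content of the windows of the 4 shown lay between 48.7% for DPT and 58.3% for CYP1B1, around a median of 52.7% over all windows.

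Below the lesion, the 9 listed markers had lower FPKM in the synj1+/- labelled group than in the synj1+/+ labelled group. The same held for 47.2% of all genes listed there. Of the 9 markers, 6 were lower by 1.5-fold or more (ISLR, CYP1B1, DPT, FOXD1, CRABP2 and FOXC1) and 0 were higher. Among all 12338 genes listed there, 4.38% were lower and 1.16% were higher by that fold. The median log2 difference was -0.88 over the 9 markers and 0.01 over all genes. Above the lesion, 1 of the 5 listed markers, CYP1B1, was lower by 1.5-fold and 0 were higher, where 1.94% of all 13647 genes were lower and 0.791% higher. The median log2 difference there was -0.24 over the 5 markers and -0.00 over all genes, and the other 4 markers lay between -0.37 and -0.02. Of all genes listed above, 51.0% had a difference below 0. These counts are not independent of how genes came to be listed. The smallest FPKM that the higher group of any listed gene reached was 1.18 above and 1.21 below the lesion, and 3 of the 9 markers below (ALDH1A2, FOXD1 and DPT) lay under it in the synj1+/- labelled group, so they were listed through the group in which they were high. In bulk tissue, fewer fibroblasts and less RNA of these genes per fibroblast cannot be told apart.

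**Figure D1:**
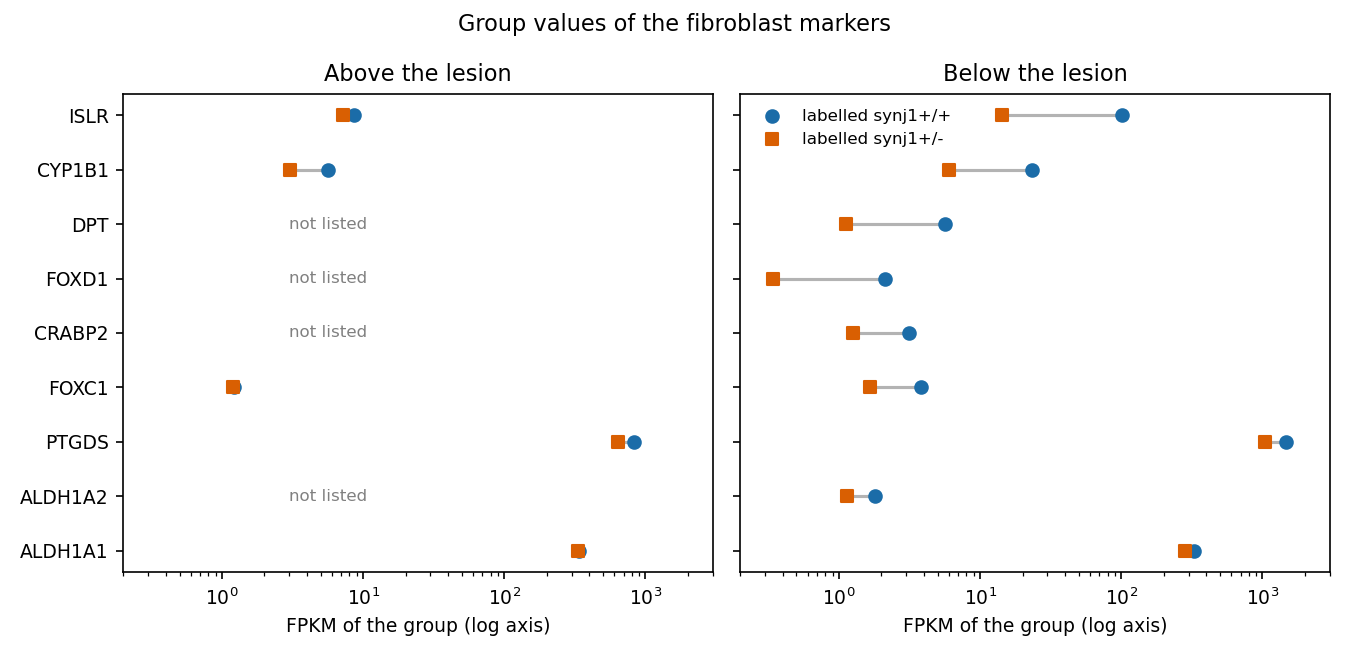
FPKM (log axis) of the 9 listed markers in the 2 groups above (left) and below (right) the lesion, 1 value for each group of 3 libraries with no error available; circles stand for the synj1+/+ labelled group and squares for the synj1+/- labelled group. Below the lesion each square lies left of its circle, most widely for ISLR (101 and 14.2) and FOXD1 (2.14 and 0.340), while above it the symbols nearly coincide for ALDH1A1 and FOXC1.

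The plot of group values shows 3 tiers of expression. PTGDS and ALDH1A1 were abundant in all 4 groups, above at least 92.3% of the genes listed at a site. ISLR and CYP1B1 were in the middle in the synj1+/+ labelled group below the lesion and lower elsewhere. FOXC1, FOXD1, CRABP2, ALDH1A2 and DPT did not exceed 5.62 FPKM in any group. The order of the genes was not tested for lack of a spread.

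Among the 9 markers listed below the lesion, ISLR had the widest difference. It encodes a secreted leucine-rich repeat protein with an immunoglobulin domain that marks mesenchymal stromal cells and fibroblasts. Its FPKM below the lesion was 101 in the synj1+/+ labelled group and 14.2 in the synj1+/- labelled group, 7.16-fold lower, with a log2 difference of -2.76. Only 11 of the 12338 genes listed below the lesion had a more negative difference (0.0892%). In the synj1+/+ labelled group the level of ISLR was above that of 78.3% of genes, and in the synj1+/- labelled group above 30.8%. Above the lesion ISLR was at 8.65 and 7.17 FPKM, with a log2 difference of -0.24. A single group, labelled synj1+/+ below the lesion, was thus high for ISLR and the other 3 lay between 7.17 and 14.2. The annotated gene spans chr9:58156268-58204306 on the minus strand and includes transcripts that begin upstream of the RefSeq start, so the sequence shown lies in an intron of those.

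DPT encodes dermatopontin, a small matrix protein that binds decorin and takes part in collagen fibril assembly. It was listed only below the lesion, with 5.62 FPKM in the synj1+/+ labelled group and 1.13 in the synj1+/- labelled group. The log2 difference was -1.64, and 0.332% of genes listed below had a more negative one. In the synj1+/- labelled group DPT lay under 1.21 FPKM, the least that the higher group of any gene listed below reached. Its direction was thus set by how it came to be listed.

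CYP1B1 encodes a cytochrome P450 that oxidises oestrogens, retinol and polycyclic hydrocarbons, and in the nervous system it is found mainly in cells of the vessel wall and the meninges. It was the one marker lower by 1.5-fold at both sites. Its FPKM was 5.64 and 3.04 above the lesion and 23.2 and 6.05 below it, for the synj1+/+ and synj1+/- labelled groups in that order. The log2 differences were -0.71 and -1.78. More negative differences were found for 1.17% of genes above and 0.235% below. As for ISLR, the value in the synj1+/+ labelled group below the lesion stood apart from the other 3, while the synj1+/- labelled group below the lesion (6.05) was close to the synj1+/+ labelled group above it (5.64). Other genes of its family and pathway had small differences or were not listed. Of 8 such genes, CYP1A1, CYP1A2, AHR and AHRR were listed at neither site, and 0 of the 4 listed above and 0 of the 3 below passed 1.5-fold, with medians of -0.07 and -0.16. ARNT, the dimer partner of the aryl hydrocarbon receptor, was at 115 and 103 FPKM below the lesion. ARNT2, the neuronal form, was listed only above, at 482 and 491.

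The forkhead transcription factors were low throughout. FOXC1, which is needed for the meninges to form, was nearly level above the lesion at 1.22 FPKM in the synj1+/+ labelled group and 1.19 in the synj1+/- labelled group. Below the lesion it was at 3.83 and 1.66, with a log2 difference of -0.86. FOXD1, a factor of stromal and meningeal progenitors, was listed only below, at 2.14 and 0.340 FPKM. Its log2 difference was -1.23, and its FPKM was 6.27-fold lower in the synj1+/- labelled group, a ratio second among the markers to that of ISLR. As for DPT, the listing set the direction of FOXD1, since 0.340 lies under 1.21 FPKM. FOXC1 and FOXD1 are both on chromosome 13 but far apart, at chr13:31806633-31812476 and chr13:98354242-98359305, and each is a single exon in the annotation. Their levels were within the lowest 8.23% of listed genes in each group, where few fragments stand behind a value.

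Among the retinoic acid genes, the marker of highest level had the smallest difference. ALDH1A1 and ALDH1A2 encode dehydrogenases that make retinoic acid from retinal. ALDH1A1, which is also made by cells outside the meninges, was at 337 and 331 FPKM above and 326 and 285 below, with log2 differences of -0.02 and -0.19. A more negative difference was found for 20.5% of genes below the lesion and 44.9% above it, so ALDH1A1 lay close to the bulk of genes at both sites. ALDH1A2, the enzyme of the meninges proper, was listed only below, at 1.81 and 1.14 FPKM. Its log2 difference of -0.39 did not reach 1.5-fold, although the ratio of its FPKM without the added 1 was 1.59. CRABP2 encodes the protein that carries retinoic acid to its receptors in the nucleus. It was also listed only below, at 3.13 and 1.249 FPKM, with a log2 difference of -0.88 and 1.86% of genes more negative.

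The other genes of retinoid handling did not share 1 direction. Of 14 genes for retinoid synthesis, binding and transport, 8 were listed below, 3 of them lower and 1 higher by 1.5-fold, with a median of -0.09. Of all genes listed below, 4.38% were lower and 1.16% higher by that fold. Above the lesion 7 were listed, with 0 past the fold and a median of -0.19. STRA6, the receptor that takes up retinol, was at 23.1 and 11.3 FPKM below the lesion (-0.97) and was not listed above. DHRS3, which reduces retinal back to retinol, was at 274 and 161 below (-0.76) and at 153 and 128 above (-0.25). CRABP1, the paralog of CRABP2, had the opposite sign at both sites. Its FPKM was 11.7 and 20.1 below (0.73) and 9.74 and 14.2 above (0.51). RDH5, a retinol dehydrogenase, was at 60.3 and 69.5 below and 62.8 and 72.5 above. Of 13 genes for retinoic acid degradation and reception, 8 were listed below, where 1 was lower and 0 higher by 1.5-fold (median -0.07), and 11 above, where 0 passed (median 0.02). The 1 gene was NR2F2, an orphan receptor of venous and stromal cells, at 49.7 and 32.6 FPKM below and 32.6 and 41.96 above. The receptors RARB and RARG had log2 differences of -0.33 and -0.32 below the lesion and -0.14 and -0.03 above.

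PTGDS encodes the lipocalin-type prostaglandin D synthase, an abundant protein of cerebrospinal fluid that the leptomeninges and also oligodendrocytes make. Its FPKM was 832 and 643 above the lesion and 1461 and 1051 below it, with log2 differences of -0.37 and -0.48. It did not reach 1.5-fold at either site, and 5.58% of genes above and 6.30% below were more negative. Of 23 genes for prostaglandin synthesis and reception, 13 were listed above, 0 of them past 1.5-fold (median -0.20), and 11 below, 3 lower and 0 higher (median -0.29). The 3 were HPGD, which inactivates prostaglandins, at 27.7 and 15.3 FPKM (-0.82), HPGDS, the haematopoietic prostaglandin D synthase, at 29.1 and 16.8 (-0.76), and TBXAS1, the thromboxane synthase, at 61.4 and 39.0 (-0.64). Of all genes listed below, 4.38% were lower by 1.5-fold. HPGDS, TBXAS1 and PTGS1 (-0.39) are known for their expression in microglia and macrophages rather than fibroblasts. SLC22A6, the organic anion transporter of the leptomeninges, is the marker for which no value was listed.

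**Figure D2:**
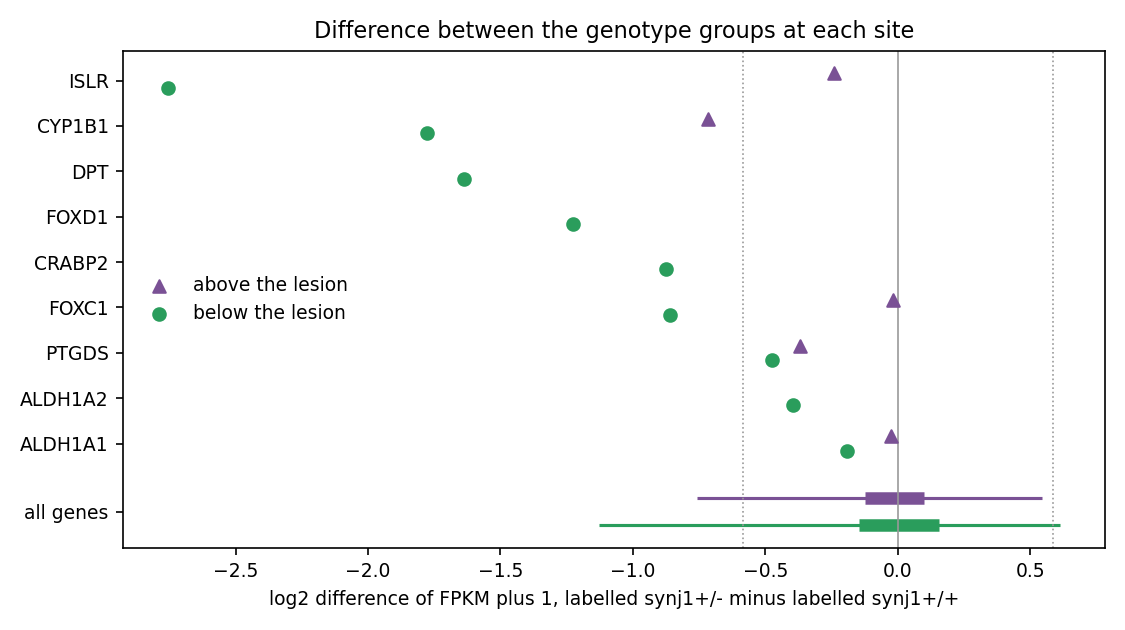
The log2 difference of FPKM plus 1 (synj1+/- labelled group minus synj1+/+ labelled group) of each marker above (triangles) and below (circles) the lesion; at the bottom, thick bars span the 25th to 75th and thin lines the 1st to 99th percentile of all genes listed at that site, and dotted lines mark 1.5-fold. Below the lesion ISLR, CYP1B1, DPT and FOXD1 lie beyond the 1st percentile (-1.13), while ALDH1A1 lies close to the bulk at both sites. DPT and FOXD1 were listed only through the synj1+/+ labelled group.

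The plot of differences places the markers in order from ISLR to ALDH1A1. For 4 of the 9 markers the difference below the lesion was more negative than the 1st percentile of all genes there (-1.13), and for CRABP2, FOXC1 and these 4 it was more negative than the 5th percentile (-0.53). Of the 4, DPT and FOXD1 were listed only through the synj1+/+ labelled group, which set their direction in advance. ISLR and CYP1B1 were free of that limit. Above the lesion no marker passed the 1st percentile (-0.76), and CYP1B1 alone passed the 5th (-0.39).

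The difference at each site can be set side by side for the 5 markers listed at both. The difference below minus the difference above was -2.52 for ISLR, -1.06 for CYP1B1, -0.84 for FOXC1, -0.17 for ALDH1A1 and -0.10 for PTGDS. All 5 were negative, as were 46.1% of the 12023 genes listed once at both sites, and the median was -0.84 over the 5 and 0.02 over all. A more negative value was found for 0.0416% of genes in the case of ISLR, 0.774% for CYP1B1 and 1.41% for FOXC1, but for 21.5% and 29.1% in the case of ALDH1A1 and PTGDS.

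**Figure D3:**
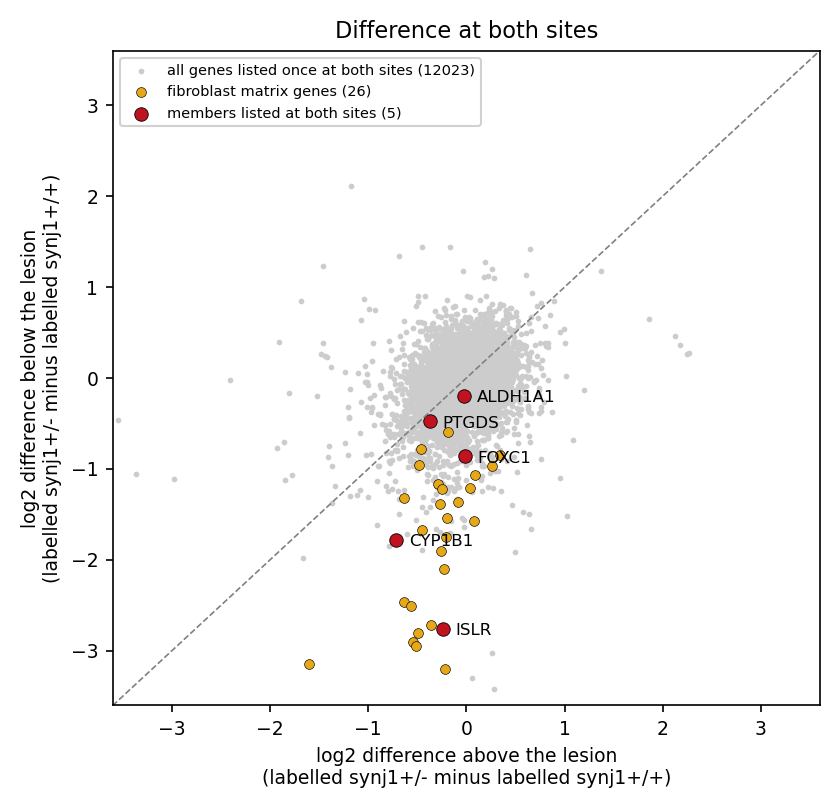
The log2 difference (synj1+/- labelled group minus synj1+/+ labelled group) above the lesion (x axis) against that below it (y axis) for 12023 genes listed once at both sites, with the dashed line marking equal differences and 2 genes outside the axes; the 5 markers and 26 fibroblast matrix genes are drawn over all genes. ISLR (-0.24 and -2.76) and CYP1B1 (-0.71 and -1.78) lie among the matrix genes under the dashed line, and PTGDS and ALDH1A1 lie in or next to the main cloud.

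Levels at the 2 sites were normalized separately, so ratios between the sites are a description and no difference between them is called. Over 12022 genes the median ratio of FPKM below to above was 0.999 in the synj1+/+ labelled groups and 1.02 in those labelled synj1+/-. Normalization can bring such a median near 1, so it does not show that levels of a single gene can be compared between sites. In the synj1+/+ labelled groups, the ratio was 11.7 for ISLR, 4.11 for CYP1B1, 3.15 for FOXC1, 1.76 for PTGDS and 0.967 for ALDH1A1. In the synj1+/- labelled groups it was 1.98, 1.99, 1.39, 1.63 and 0.860 in the same order. The high value of ISLR, CYP1B1 and FOXC1 was thus that of the synj1+/+ labelled group below the lesion, and the synj1+/- labelled groups differed less between the sites. For 26 matrix genes listed at both sites the median ratio was 3.27 in the synj1+/+ labelled groups and 1.27 in those labelled synj1+/-. For 26 other meningeal and border fibroblast markers listed at both sites it was smaller, at 1.40 and 1.09 in the same order.

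Lists of other fibroblast genes, chosen with earlier results of these data known, were measured beside these. Over all listed genes, 4.38% were lower and 1.16% higher by 1.5-fold below the lesion, and 1.94% and 0.791% above it. Of 56 further markers of meningeal and border fibroblasts, 40 were listed below, 24 lower and 0 higher by 1.5-fold, with a median of -0.67. Of those lower, FOXC2 (2.85 and 0.349 FPKM), TWIST1 (2.97 and 0.233), OSR1 (3.27 and 0.568) and ITIH2 (2.04 and 0.587) were listed only through the synj1+/+ labelled group. Their second values lie under 1.21 FPKM, the least that the higher group of any gene listed below reached. Above the lesion 31 were listed, 1 lower and 0 higher, with a median of -0.03. IGFBP6, which binds insulin-like growth factor 2, was at 28.6 and 2.63 FPKM below (-3.03) but at 1.43 and 1.90 above (0.26). SLC47A1, an extruder of organic cations, was at 17.0 and 1.44 (-2.88). The secreted signal WNT6 was at 18.1 and 5.26 (-1.61), and SLC6A13, a GABA and taurine transporter of the leptomeninges, at 14.8 and 4.70 (-1.47). SLC47A1, WNT6 and SLC6A13 were not listed above the lesion.

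Of 29 fibroblast matrix genes, 28 were listed below the lesion, and 28 were lower by 1.5-fold, with a median of -1.62. Of all genes listed there, 4.38% were lower by that fold. Above the lesion 27 were listed, 3 lower and 0 higher, with a median of -0.27, where 1.94% of all genes were lower. MGP, a calcification inhibitor, was at 101 and 10.0 FPKM below (-3.20), COL3A1, the chain of type III collagen, at 68.9 and 6.91 (-3.14), the microfibril protein MFAP5 at 18.3 and 1.26 (-3.09) and the proteoglycan LUM at 21.7 and 1.94 (-2.95). The difference of ISLR (-2.76) lay inside the range of these genes, from -3.20 to -0.59. COL3A1 was also lower above the lesion, at 4.26 and 0.728 (-1.60). The second value lies under 1.18 FPKM, the least that the higher group of any gene listed above reached, so the listing set its direction. Of 16 genes for fibroblast receptors and lineage, 14 were listed below, 3 lower and 0 higher (median -0.34), and 15 above with 0 past the fold (median -0.13). S100A4, also made by other motile cells, was at 81.7 and 35.1 FPKM below (-1.19), the collagen receptor MRC2 at 11.4 and 5.25 (-0.99) and the chemokine CXCL12 at 92.3 and 58.9 (-0.64). PDGFRB, the receptor shared by fibroblasts and pericytes, was at 24.8 and 17.3 below (-0.49) and at 14.4 and 16.8 above (0.20).

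Markers of other cell types follow. Over all listed genes, the shares past 1.5-fold were 4.38% lower and 1.16% higher below the lesion, and 1.94% and 0.791% above it. For the endothelium, 12 of 12 markers were listed at both sites, with 1 lower below (CDH5, 15.1 and 9.55 FPKM) and medians of -0.14 below and 0.06 above. Of 12 markers of pericytes and smooth muscle, 9 were listed at each site, with 2 lower and 1 higher below, 0 lower and 1 higher above, and medians of -0.03 and 0.03. Of 15 microglia and macrophage markers, 10 were listed below, 6 lower and 0 higher (median -0.64), and 12 above, 4 lower and 0 higher (median -0.46). Their summed FPKM was 2760 and 1797 below and 2444 and 1695 above, and their part in the result was not tested. The summed FPKM of the listed fibroblast markers was 1928 and 1361 below, over 9 genes, and 1184 and 986 above, over 5, and PTGDS made up most of each sum. Schwann cells, which enter the cord after injury from the roots, had 7 of 10 markers listed below, 2 lower (among them EGR2, 41.4 and 16.8 FPKM) and 0 higher, with a median of -0.24 and a summed FPKM of 1272 and 1090. Above the lesion 5 were listed, 0 lower and 1 higher, with a median of 0.06 and a sum of 1007 and 914. Their part in the result was likewise not tested. Astrocyte markers (9 of 10 listed below and 10 above), mature oligodendrocyte markers (9 and 10 of 14) and neuron markers (8 and 10 of 12) had 0 genes past 1.5-fold at either site, with medians below the lesion of -0.17, 0.03 and 0.19. Of 10 skeletal muscle genes, 2 were listed below and 1 above, and the sums were 6.06 and 7.45 FPKM below and 1.44 and 0.407 above.

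**Figure D4:**
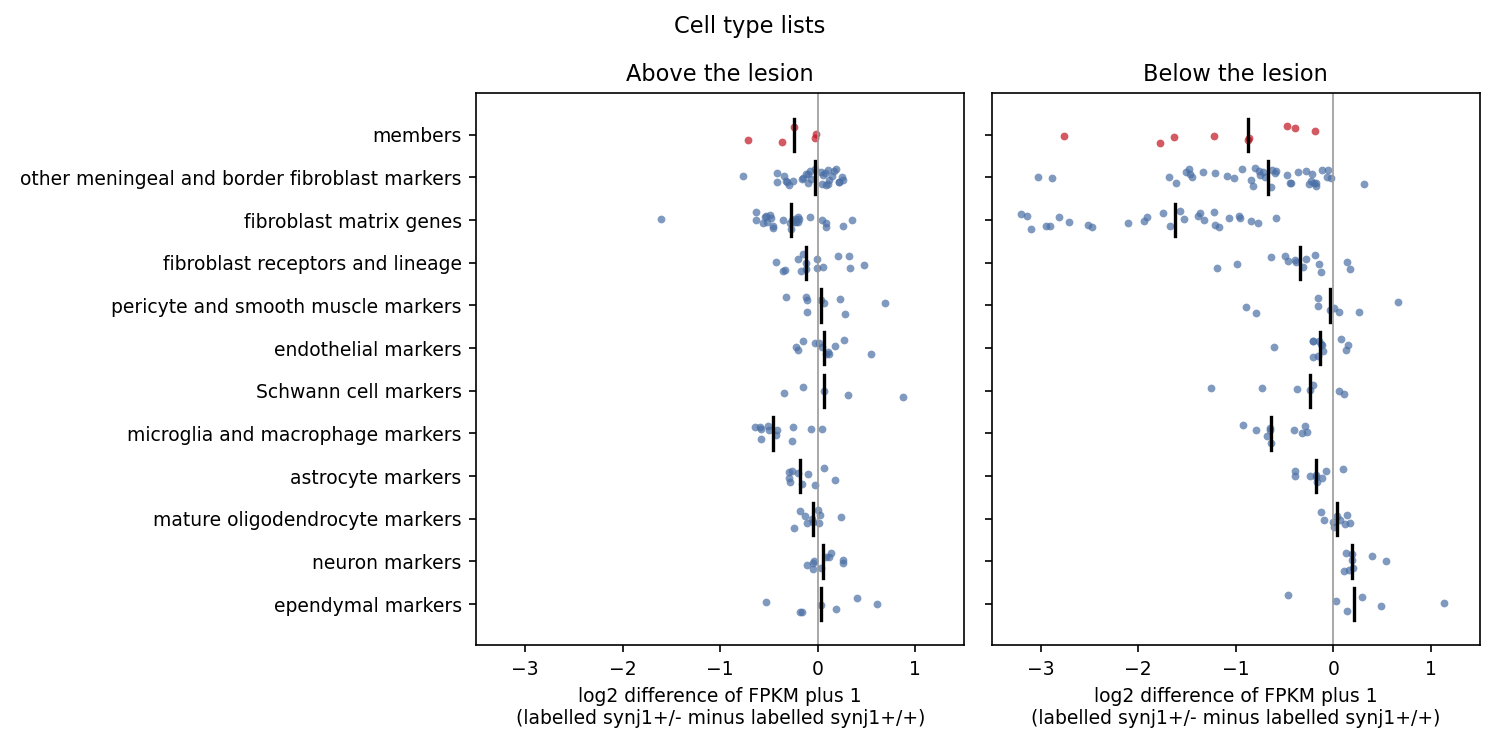
The log2 difference (synj1+/- labelled group minus synj1+/+ labelled group) of every listed gene of 12 marker lists above (left) and below (right) the lesion; each point is 1 gene, its height within a row is arbitrary, and black bars are list medians. Below the lesion the markers described here (median -0.88), the other meningeal markers (-0.67), the matrix genes (-1.62) and the microglia and macrophage markers (-0.64) are shifted to the left, while pericyte, astrocyte, oligodendrocyte and neuron medians lie between -0.17 and 0.19. The remaining medians below are -0.34 for fibroblast receptors and lineage, -0.24 for Schwann cells, -0.14 for endothelium and 0.22 for ependymal cells.

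The plot by cell type shows the width of each list as well as its median. The markers described here ran from -2.76 to -0.19 below the lesion and the matrix genes from -3.20 to -0.59, whereas the neuron markers ran from 0.11 to 0.54.

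Genes outside the lists were ranked by how close their differences at both sites came to the markers' medians (-0.24 above and -0.86 below, over the 5 markers listed at both). Among 9631 genes with a deposited value of 10 or more in a group of each site, the 5 closest were CMTM7, CD53, HTRA3, FMO1 and CEBPB, at distances of 0.0435 to 0.0742 on the log2 scale. CD53 is a tetraspanin of leukocytes and HTRA3 a secreted serine protease of stromal cells. The likeness rests on 2 differences from 4 pooled values per gene.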

How the data were processed

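RNA-seq was performed on 12 libraries, 3 in each of 4 groups formed by the genotype and site in the labels. Per the study's methods, the authors randomly thinned the reads of each site's libraries to the size of the smallest before alignment, and applied upper quartile normalization. The submitters' processing notes name STAR 2.5.4b, Cuffdiff 1.3.0 and GRCm38.p6. The authors deposited 1 score per gene, site and group, read here as FPKM plus 1 because the lowest value was exactly 1, and no library counts, so depth per library is unknown here. Their fold changes, p-values and q-values were not used, and neither was their shorter gene list. The log2 difference, the share of genes past 1.5-fold and list medians were computed per site over all listed genes with Python 3.11.15, pandas 2.3.3 and numpy 2.4.6, and the calculations were tested on simulated data. With 1 pooled value per group, no test was made. FPKM was higher for genes with more annotated transcript models (Spearman's rho of 0.377 above and 0.340 below, across genes, as a description), so levels of different genes are compared loosely. Gene positions are from GENCODE M21 on GRCm38.

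The members and all gene lists were chosen with earlier results of these data known. The genes named are SYNJ1, the members, of each list up to 4 genes with the largest difference among those with a deposited value of 10 or more in a group, and the 5 genes closest to the members' medians. COL3A1 above the lesion was named after its values were seen. Not every gene that meets this rule is reported here. The nearest genes to ALDH1A2 could not be ranked, since it was listed at 1 site. The AP-1, forkhead and aryl hydrocarbon receptor letters were added after seeing the data. Other pseudocounts, scalings, folds and a value filter were tried.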

Additional observations from a re-analysis of the deposited data

How the results depend on the processing

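No member changed sign under any of 3 other scalings of the groups (by the sum, by the upper quartile, and with the median of all genes taken off). The upper quartiles of the 2 groups were 99.6 and 99.7 FPKM above the lesion and 86.0 and 87.2 below. The sums were also close and the median difference of all genes was near 0. These scalings could thus move the differences only slightly. Counts and sizes depended on how low values were treated. With a pseudocount of 10, 0 markers were lower above the lesion in place of 1 and 2 below in place of 6, and the medians were -0.12 above and -0.25 below. Over all genes 0.520% were then lower and 0.103% higher above, and 1.52% and 0.178% below. With a pseudocount of 0.1, 1 marker was lower above and 7 below. Over all genes 2.64% were then lower and 1.21% higher above, and 5.33% and 1.88% below. The median of the markers below was -1.26. Among genes with a deposited value of 10 or more in a group, 0 of 2 markers left were lower above and 2 of 4 below (ISLR and CYP1B1), where 1.41% and 3.68% of all such genes were lower, and the median below was -1.13. The mean in place of the median below was -1.13. At 2-fold, 0 markers were lower above and 4 below, 0.564% of genes were lower and 0.132% higher above, and 1.305% and 0.162% below. At the lower fold tried, 2 markers were lower above and 8 below, 7.45% of genes were lower and 4.18% higher above, and 11.5% and 8.06% below. Without the added 1, a scale chosen after seeing the data, 1 marker was lower above and 7 below. The share of all genes on that scale was not computed, so these counts have nothing to be set against. These shifts follow from the construction of each setting, since a larger pseudocount shrinks low genes and a lower fold takes in more. No paired analysis was possible because the table held 1 value per group. Leaving out a replicate could not be run for the same reason. The FPKM of FOXC1, FOXD1, CRABP2, ALDH1A2 and DPT are so low that their ratios are the least certain values given.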

Other observations

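Ependymal markers are genes of the ciliated cells that line the central canal. Of 8 such markers, 6 were listed below the lesion, 0 lower and 1 higher by 1.5-fold in the synj1+/- labelled group, with a median log2 difference of 0.22, where 1.16% of all genes were higher, and 7 were listed above, 0 lower and 1 higher, with a median of 0.03. TMEM212 was the gene that passed at both sites, at 6.22 FPKM in the synj1+/+ labelled group and 9.97 in the synj1+/- labelled group above the lesion, and 2.63 and 6.99 below. CFAP126, a protein of the ciliary base, was at 32.2 and 39.8 below. DYNLRB2, a dynein light chain named after its values were seen, had the opposite sign, with log2 differences of -0.47 below and -0.53 above. Of the neuron markers, none of which passed 1.5-fold, SYT1, the calcium sensor of vesicle release, was at 331 and 480 FPKM below the lesion and SNAP25, a vesicle fusion protein, at 5271 and 6928. NCMAP, a myelin protein of Schwann cells, was at 7.49 and 14.6 above the lesion and 19.6 and 15.0 below it. These are single values per group, with no test.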
